A study of Mus musculus with 24 samples.

Results

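Endothelial genes, 10 in number, were followed in mouse liver and kidney, named as pan-endothelial, sinusoidal or fenestrated-capillary genes and read by symbol from the deposited table: Plvap, Kdr, Cdh5, Pecam1, Stab2, Lyve1, Emcn, Flt1, Vwf and Dnase1l3. All 10 of 10 were found, each on a single row, among 33272 gene rows. The organs came from C57BL/6 mice in 4 arms: an untreated control, CBLB502 alone (an agonist of the flagellin receptor TLR5, 0.2 mg/kg), cisplatin alone (20 mg/kg, intraperitoneal) and a combination in which CBLB502 was given 30 min ahead of cisplatin. Treated organs were taken at 72 h, no transgene or deletion is named, and each organ and arm has 3 libraries. The labels give no age, no time for the controls, and nothing on whether each library is its own animal. The p-values therefore rest on library-to-library spread, part or all of which may be technical.

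Liver sinusoids are lined by fenestrated endothelial cells without a continuous basement membrane, which take up macromolecules through scavenger receptors such as stabilin-2 and the hyaluronan receptor LYVE-1. Kidney endothelium is fenestrated in the glomerulus and the peritubular capillaries, and it depends on vascular endothelial growth factor (VEGF) made by podocytes and tubule cells. PLVAP forms the diaphragms of fenestrae, KDR and FLT1 are receptors for VEGF, VE-cadherin (Cdh5) and Pecam1 hold endothelial junctions, endomucin (Emcn) belongs to the glycocalyx of capillaries and veins, von Willebrand factor (Vwf) is stored in larger vessels, and DNASE1L3 is a secreted nuclease that digests extracellular chromatin.

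Levels are CPM, counts normalised to library size and scaled between libraries by the trimmed mean of M-values (TMM), and levels of different genes are compared only per kb of the gene length that the deposited FPKM imply. A gene was called changed where edgeR's quasi-likelihood test gave a Benjamini-Hochberg adjusted p under 0.05 over all genes tested in the organ, 17931 in liver and 20341 in kidney. Log2 fold changes are given ± SE. The 10 genes passed the filter on low counts in both organs. Plvap, Cdh5 and Stab2 overlap other annotated genes (Gtpbp3, Gm29682, and Gm16271, Gm16270 and Gm16268), and as the strand setting of the counting is not given in the sources used here, reads of overlapping genes cannot be told apart. Reads carried no molecular identifiers that the sources name, so limits given for 0 counts (3 counts in that library) cover counting error only. Since the tissue was sequenced whole, fewer endothelial cells and less RNA per endothelial cell cannot be told apart.

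Control libraries stood apart in both organs. Mitochondrial genes took 69.3% to 72.2% of counts in control liver against 2.57% to 7.10% in treated liver, and 60.7% to 69.0% in control kidney against 6.32% to 14.2% in treated kidney. Totals ran from 40.6 to 77.5 M counts per library, and the 10 genes together drew 555 to 701 counts in a control liver library, 809 to 12440 in a treated liver library, 5267 to 6450 in a control kidney library and 1224 to 25032 in a treated kidney library. The library type therefore cannot be told apart from treatment in any comparison with control, and comparisons with CBLB502 alone are given beside them. CBLB502 libraries also differed from those of both cisplatin arms, with totals of 53.5 to 58.3 M counts against 70.1 to 77.5 M. Their mitochondrial share was 6.73% to 7.10% against 2.57% to 5.70% in liver, and 13.3% to 14.2% against 6.32% to 10.3% in kidney. Depth and library type therefore cannot be told apart from treatment there either. Hepatocyte markers summed to 13208 to 82943 CPM in liver libraries and 42.4 to 316 in kidney libraries, and proximal tubule markers to 4925 to 19932 CPM in kidney and 0.0698 to 38.9 in liver, so the libraries carried the markers of their labelled organs. Kidney cisplatin library 6 and liver cisplatin library 3 differed from the others of their groups, and the results that rest on them are given with and without them.

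Upstream sequences are shown for a sinusoidal gene (Stab2), a capillary gene (Emcn) and both VEGF receptors (Kdr and Flt1), which are followed below. RefSeq's table for build GRCm38.p6 holds an entry for 4 of the 10, and the bases ahead of the annotated start are printed 5′ to 3′ on the strand of the gene. Capitals mark AGGAAG or its reverse complement CTTCCT, a longer form of the ETS-type site, since ETS factors are known regulators of endothelial genes.
Kdr, chr5:75978459-75978705, minus strand: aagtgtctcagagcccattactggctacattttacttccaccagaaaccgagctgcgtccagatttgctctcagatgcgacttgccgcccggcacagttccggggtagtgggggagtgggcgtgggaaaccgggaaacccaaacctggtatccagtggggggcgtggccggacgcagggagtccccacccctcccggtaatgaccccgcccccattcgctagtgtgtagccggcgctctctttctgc
Stab2, chr10:87008026-87008192, minus strand: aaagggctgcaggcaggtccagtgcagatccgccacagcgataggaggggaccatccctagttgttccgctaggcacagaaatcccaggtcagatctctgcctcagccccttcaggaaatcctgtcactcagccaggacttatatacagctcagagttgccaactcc
Emcn, chr3:137340828-137341066, plus strand: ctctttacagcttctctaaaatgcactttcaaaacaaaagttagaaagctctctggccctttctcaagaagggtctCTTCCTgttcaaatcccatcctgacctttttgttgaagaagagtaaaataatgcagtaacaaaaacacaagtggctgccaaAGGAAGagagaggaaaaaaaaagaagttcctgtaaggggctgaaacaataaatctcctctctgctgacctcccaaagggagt
Flt1, chr5:147726012-147726261, minus strand: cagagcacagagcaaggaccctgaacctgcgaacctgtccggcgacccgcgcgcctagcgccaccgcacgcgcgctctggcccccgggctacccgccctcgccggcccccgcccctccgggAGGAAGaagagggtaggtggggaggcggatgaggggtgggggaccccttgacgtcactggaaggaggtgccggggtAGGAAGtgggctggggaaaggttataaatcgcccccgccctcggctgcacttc
This form occurs at 2 places in the Emcn and 2 in the Flt1 window, and these letters are not in the Kdr or Stab2 window. Shorter ETS-type matches were not marked or counted, and the letters GGAA are present in the Kdr and Stab2 windows. Among 32851 promoters cut to the same lengths, the share with a match was 28.3% for the 239 bases of Emcn, 29.5% for the 250 of Flt1, 29.2% for the 247 of Kdr and 20.1% for the 167 of Stab2. In kidney with cisplatin against control, edgeR called all 4 genes lower, where 15.2% of all genes were. The Emcn call was lost when only these groups were fitted (adjusted p = 0.052) and without control library 1 or cisplatin library 5. Library type cannot be told apart from treatment in that comparison, and whether the marked letters bear on these levels was not tested.

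The organs differed in which of these genes prevailed. In the CBLB502 arm, on a scaling common to both organs, Dnase1l3 stood at 6.48, 4.27 and 1.97 CPM per kb in the liver libraries and at 0.0502, 0.0541 and 0.0531 in the kidney libraries. Stab2 stood at 3.11, 2.31 and 1.73 CPM per kb in liver and 0.0850, 0.162 and 0.176 in kidney. Emcn went the other way, with 0.240, 0.269 and 0.147 CPM per kb in liver and 4.42, 3.90 and 2.38 in kidney. For none of these 3 did the organs overlap, and Plvap, at 12.9, 12.6 and 9.20 CPM per kb in liver and 24.5, 22.4 and 12.04 in kidney, was the highest of the 10 in both.

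**Figure D1:**
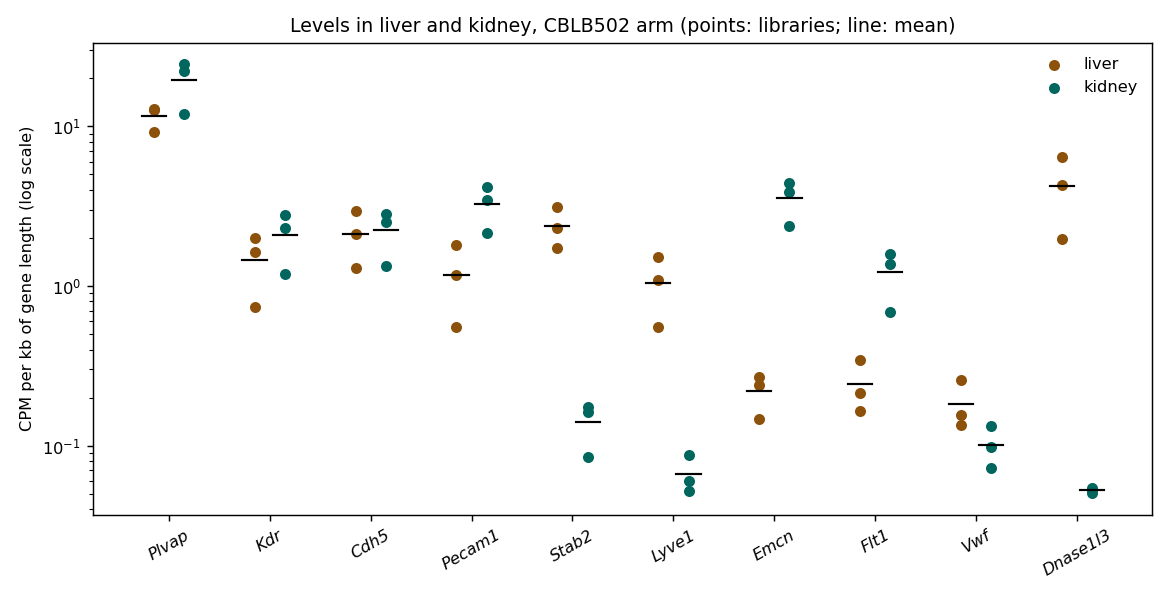
Levels of the 10 genes in liver (brown) and kidney (green) in the CBLB502 arm, as CPM per kb of gene length on a log axis; points are libraries and lines are means of 3. Stab2, Lyve1 and Dnase1l3 lie higher in liver, Emcn and Flt1 higher in kidney, and Plvap is the highest in both.

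In edgeR's fit of all 24 libraries over 21570 genes, 2 of the 10 were called higher and 3 lower in kidney than in liver in the CBLB502 arm, where 16.6% of all genes were called higher and 13.3% lower. Dnase1l3 had a kidney-to-liver log2 ratio of -6.33 ± 1.42 (adjusted p = 0.0017), Stab2 -4.08 ± 0.51 (2.8e-06) and Lyve1 -3.97 ± 0.90 (0.0019), while Emcn had 4.03 ± 1.12 (0.0093) and Flt1 2.33 ± 0.84 (0.042). This Flt1 call was lost on leaving out any of liver CBLB502 libraries 1, 2 and 3 or kidney CBLB502 libraries 4 and 5. In the cisplatin arm the same 5 genes were called in these directions, with backgrounds of 19.5% higher and 15.4% lower, but the Dnase1l3 and Flt1 calls depended on single libraries. Without liver cisplatin library 3, Dnase1l3 had -1.15 (adjusted p = 0.50) and Flt1 2.08 (0.11). Without kidney cisplatin library 6, Flt1 had 1.74 (0.15) and Vwf was called lower at -3.12 (0.036). The Flt1 call was also lost on leaving out liver cisplatin library 1, liver cisplatin library 2 or kidney cisplatin library 5. In the combination arm 5 were called higher (Plvap, Cdh5, Pecam1, Emcn and Flt1) and 3 lower (Stab2, Lyve1 and Dnase1l3), against 23.1% and 17.2% of all genes. With 1 library left out 4 to 6 were called, Lyve1 and Dnase1l3 only without liver combination library 2, and limma-voom called 4. In control 4 were called higher (Cdh5, Pecam1, Emcn and Flt1) and 2 lower (Stab2 and Dnase1l3), against 17.2% and 16.7%, and limma-voom called 1 of these 6. Of 13 other sinusoidal genes, 8 were called lower in kidney and 1 higher in the CBLB502 arm: Clec4g, a lectin of sinusoidal endothelium, averaged 0.0386 CPM in kidney against 21.2 in liver. Of 11 other kidney vessel genes, 6 were called higher in kidney, and Sema3g averaged 29.6 CPM there against 0.275 in liver.

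Per kb, Plvap exceeded the next gene by more than the larger of their SDs in control and CBLB502 liver, with means of 4.82 ± 1.40 and 8.21 ± 1.54 CPM per kb (SD, n = 3). Dnase1l3 was next in both, at 1.503 ± 0.589 and 3.02 ± 1.64, and it did not clear Stab2 by that margin. In combination liver Stab2 came first at 0.681 ± 0.099 CPM per kb, with Plvap at 0.448 ± 0.293, and these 2 did not differ by more than the larger SD. In cisplatin liver Lyve1 came first at 1.85 ± 1.64 CPM per kb, carried by library 2, and did not clear Plvap at 0.955 ± 0.208. In kidney the order began with Plvap and Emcn in each arm, and in the cisplatin arm no gene cleared the next.

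In liver, Plvap transcripts fell in both cisplatin arms. Plvap stood at 14.0, 11.7 and 7.65 CPM in control libraries 1, 2 and 3 and at 21.3, 20.6 and 14.9 with CBLB502. It stood at 1.85, 2.75 and 2.01 CPM with cisplatin and at 0.499, 0.806 and 1.79 with the combination. All 6 libraries that had received cisplatin lay below all 6 that had not, and each combination library lay below each cisplatin library. The fold change was -2.34 ± 0.42 (log2, adjusted p = 0.0010) for cisplatin against control and -3.10 ± 0.43 (0.0016) against CBLB502. For the combination it was -3.43 ± 0.44 (0.00014) against control and -4.20 ± 0.45 (0.00057) against CBLB502, where mean CPM was 18.3-fold lower. Plvap was called in each of these comparisons whichever library was left out.

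**Figure D2:**
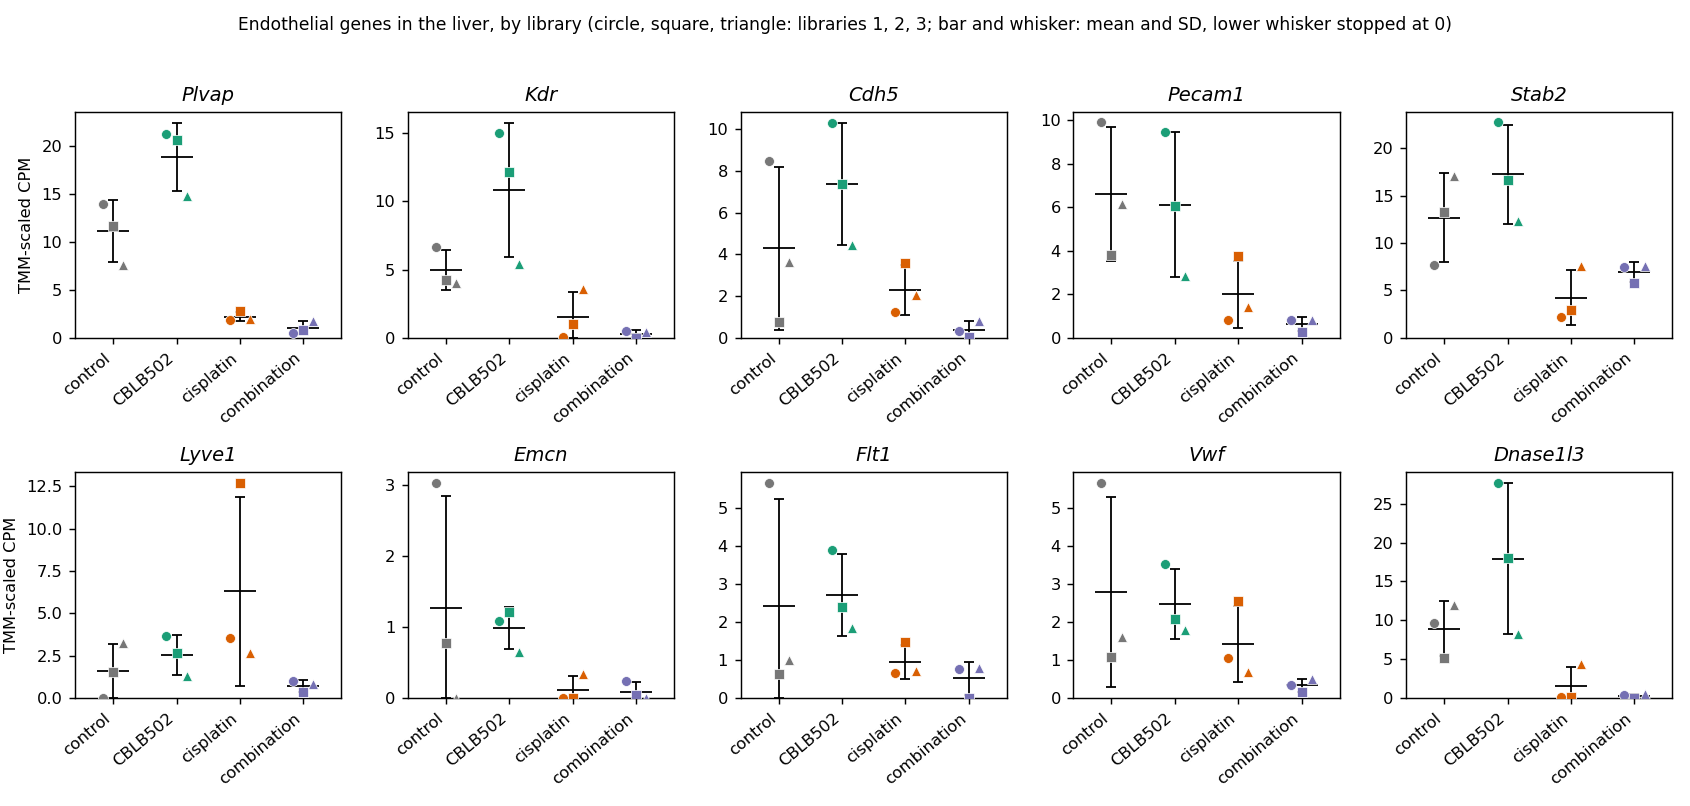
CPM of each of the 10 genes in the 12 liver libraries, on linear axes that start at 0 and differ between genes; points are libraries, bars means and whiskers SD. Plvap lies between 0.499 and 2.75 CPM in the cisplatin and combination libraries and between 7.65 and 21.3 in the others, and Lyve1 is highest in cisplatin library 2.

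The scavenger receptor gene Stab2 was lower without overlap in both cisplatin arms, and in edgeR the call was made with cisplatin alone. It stood at 7.67, 13.3 and 17.0 CPM in control, 22.7, 16.7 and 12.3 with CBLB502, 2.17, 2.91 and 7.53 with cisplatin, and 7.48, 5.77 and 7.55 with the combination. Cisplatin libraries 1 and 2 were the lowest of the 12, and cisplatin library 3 lay among the combination libraries. It fell with cisplatin, with a log2 fold change of -1.59 ± 0.45 (adjusted p = 0.014) against control and -2.03 ± 0.45 (0.014) against CBLB502. The combination had -0.87 ± 0.44 (0.14) against control and -1.31 ± 0.44 (0.10) against CBLB502, neither called in edgeR. Other tests called it lower with the combination: against CBLB502 DESeq2 (0.026), limma-voom (0.032) and the fit of only the groups compared (0.0026), and against control DESeq2 (0.030) and only the groups compared (0.027). Combination and cisplatin differed by 0.72 ± 0.44 (0.38), and without cisplatin library 3 by 1.46 (0.011), which is called higher. The call of Stab2 lower with cisplatin than with CBLB502 was lost on leaving out CBLB502 library 1, CBLB502 library 2 or cisplatin library 2, and the call against control on leaving out control library 3 or cisplatin library 2.

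Lyve1 was laid out otherwise than the other sinusoidal genes. It stood at 0, 1.55 and 3.22 CPM in control, 3.68, 2.63 and 1.31 with CBLB502, 3.56, 12.7 and 2.63 with cisplatin, and 1.01, 0.339 and 0.825 with the combination. No count in control library 1 allows up to 0.303 CPM, the level of 3 counts there. Cisplatin library 2 stood highest of the 12, and the combination libraries all lay below the cisplatin and CBLB502 libraries. None of its contrasts in liver was called in edgeR's fit of all 12 libraries. The combination against cisplatin had -3.12 ± 0.97 (adjusted p = 0.094) there, DESeq2 called it, and without cisplatin library 3 edgeR gave -3.47 (0.020). A fit of only the groups compared called Lyve1 lower in the combination against CBLB502, at -1.86 (0.023).

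Dnase1l3 had the lowest fold change of the 10 in the combination against CBLB502. It stood at 9.69, 5.11 and 11.98 CPM in control, 27.6, 18.02 and 8.19 with CBLB502, 0.0898, 0.164 and 4.41 with cisplatin, and 0.414, 0 and 0.502 with the combination. The combination libraries and cisplatin libraries 1 and 2 all lay at or under 0.502 CPM, and cisplatin library 3 stood apart from them, just under the lowest control library. The empty combination library allows up to 0.0275 CPM. The fold change of the combination against CBLB502 was -5.87 ± 1.49 (adjusted p = 0.038) and against control -4.85 ± 1.44 (0.019). Cisplatin against CBLB502 had -3.52 ± 1.32 (0.10), and -7.14 (0.00093) without cisplatin library 3. With all libraries kept, DESeq2 (0.032) and limma-voom (0.015) called Dnase1l3 lower there.

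The VEGF receptor Kdr followed the same layout. It stood at 6.66, 4.26 and 4.03 CPM in control, 15.003, 12.1 and 5.42 with CBLB502, 0.0674, 0.982 and 3.56 with cisplatin, and 0.482, 0 and 0.395 with the combination. The cisplatin libraries spread widely, library 3 highest, and none reached the control libraries. Kdr fell in the combination, with a log2 fold change of -5.20 ± 1.31 (adjusted p = 0.037) against CBLB502 and -4.08 ± 1.26 (0.023) against control. With cisplatin it had -2.81 ± 1.16 (0.13) against CBLB502, and -4.38 (0.019) without cisplatin library 3. With all libraries kept, limma-voom called Kdr lower there (0.026). Flt1, the other VEGF receptor, ranged from 1.83 to 3.90 CPM with CBLB502, 0.662 to 1.46 with cisplatin and 0 to 0.780 with the combination, and it was not called in any liver comparison.

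Among the junction genes, Cdh5 stood at 10.3, 7.37 and 4.47 CPM with CBLB502, 1.22, 3.6002 and 2.04 with cisplatin, and 0.313, 0.0366 and 0.816 with the combination. Control libraries spread from 0.774 to 8.48 CPM and so overlapped the combination, but no CBLB502 library overlapped either cisplatin arm. Cdh5 fell in the combination, with a log2 fold change of -4.24 ± 0.995 (adjusted p = 0.028) against CBLB502. Pecam1 stood at 9.46, 6.07 and 2.83 CPM with CBLB502, 0.831, 3.74 and 1.40 with cisplatin and 0.820, 0.275 and 0.807 with the combination, and its fold change, also called, was -3.27 ± 0.68 (0.016) in the combination against CBLB502. Its cisplatin libraries overlapped CBLB502, at -1.62 ± 0.64 (0.12). For cisplatin against CBLB502, limma-voom called Pecam1 (0.043) and Cdh5 (0.032) lower.

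Vwf and Emcn were low in liver throughout. Vwf stood at 3.51, 2.09 and 1.79 CPM with CBLB502, 1.04, 2.54 and 0.672 with cisplatin, and 0.347, 0.147 and 0.502 with the combination, which lay below all other liver libraries. It fell in the combination against CBLB502, with a log2 fold change of -2.88 ± 0.75 (adjusted p = 0.042). Emcn had no count in cisplatin libraries 1 and 2, combination library 3 and control library 3, and at most 3.03 CPM elsewhere. Its fold changes of -3.07 ± 1.83 and -3.40 ± 1.86 for cisplatin and the combination against CBLB502 were not called in edgeR. Without cisplatin library 3 the former was called (adjusted p = 0.026), and no fold is given since both remaining libraries had no count. limma-voom called Emcn lower with cisplatin (0.036), and a fit of only the groups compared called it lower with the combination (0.037).

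Counted over the 10 genes in liver, CBLB502 against control called 0 in edgeR, with 0 at an unadjusted p under 0.05 and 0 by DESeq2 or limma-voom, against 27.8% of all genes called in either direction. Cisplatin called 2 lower against control (17.5% of all genes lower) and 2 lower against CBLB502 (4.84%), Plvap and Stab2 each time. Without cisplatin library 3, cisplatin called 5 lower in both, with Kdr, Emcn and Dnase1l3 added. The combination called 6 lower against control (16.4%) and 6 lower against CBLB502 (3.86%), namely Plvap, Kdr, Cdh5, Pecam1, Vwf and Dnase1l3 in both. The median log2 fold change of the 10 was -1.86 for cisplatin and -3.33 for the combination against CBLB502, beside -0.06 and 0.02 over all genes tested. The groups did not overlap for 10 of 10 in the combination against CBLB502, where 22.2% of all genes were lower without overlap. On leaving out any of the 6 libraries of the combination and CBLB502, 1 or 2 of the 6 calls between them remained, Plvap always among these. Over all genes, calls in that comparison went from 1209 to between 448 and 579. In the combination against control, 4 to 6 calls remained with 1 library left out. The cause was not tested.

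Other endothelial genes of liver were called lower in the same comparison. Of 24 other pan-endothelial genes, 13 were called lower in the combination than with CBLB502 (median -2.93), among them Eng, a co-receptor for TGF-beta family ligands, at -2.69 ± 0.40 (adjusted p = 0.0026) and S1pr1, a receptor for sphingosine-1-phosphate, at -1.33 ± 0.23. Icam2 and Myct1 had no count in any combination library, against 1.32 and 1.36 CPM with CBLB502. Of 13 other sinusoidal genes 7 were called lower (median -3.31): the Fc receptor Fcgr2b averaged 0.714 CPM against 15.3, the mannose receptor Mrc1 0.9798 against 12.1, the lymphatic and sinusoidal VEGF receptor Flt4 0.594 against 6.87, and Clec4g 0.915 against 15.1. With cisplatin alone 4 of 24 and 6 of 13 were called lower against CBLB502 (medians -1.48 and -1.67). Growth factor genes had 1 of 10 called lower in the combination, Vegfb at -1.86 ± 0.34. Vcam1, an adhesion molecule of activated endothelium, and the flow-responsive factor Klf2 were the 2 of 13 activation genes called lower in the combination, where 3.86% of all genes were. With cisplatin alone the activation and coagulation list summed to 34.5, 1101 and 1906 CPM in rising order. It summed to 30.7 to 40.2 CPM with CBLB502 and 31.9 to 42.5 with the combination, so the lowest cisplatin library lay inside both ranges.

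Markers of other liver cells moved with the endothelial genes, and their part in the result was not tested. In the combination against CBLB502, 10 of 11 macrophage genes were called lower (median -3.36) and their summed level was 22.7 to 35.7 CPM against 215 to 397. In the same comparison 6 of 10 stellate, pericyte and smooth muscle genes were called lower, summing to 13.5 to 20.3 CPM against 85.1 to 115. All 5 erythroid genes were called lower (median -8.18), at 11.5 to 17.2 CPM against 173 to 190. Leukocyte genes had 4 of 6 called lower, at 0.798 to 1.55 CPM against 10.7 to 15.8, with 1 gene at 0 in all 3 combination libraries. With cisplatin alone against CBLB502, 7 of 11 macrophage genes (37.3 to 132 CPM), 6 of 10 stellate, pericyte and smooth muscle genes (16.51 to 20.4), 5 of 5 erythroid genes (4.23 to 9.42) and 3 of 6 leukocyte genes (3.19 to 5.18) were called lower, beside the calls of Plvap and Stab2. In the combination the 6 hepatocyte genes had a median of 0.44 and summed to 55610 to 74128 CPM against 44609 to 55886.

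**Figure D3:**
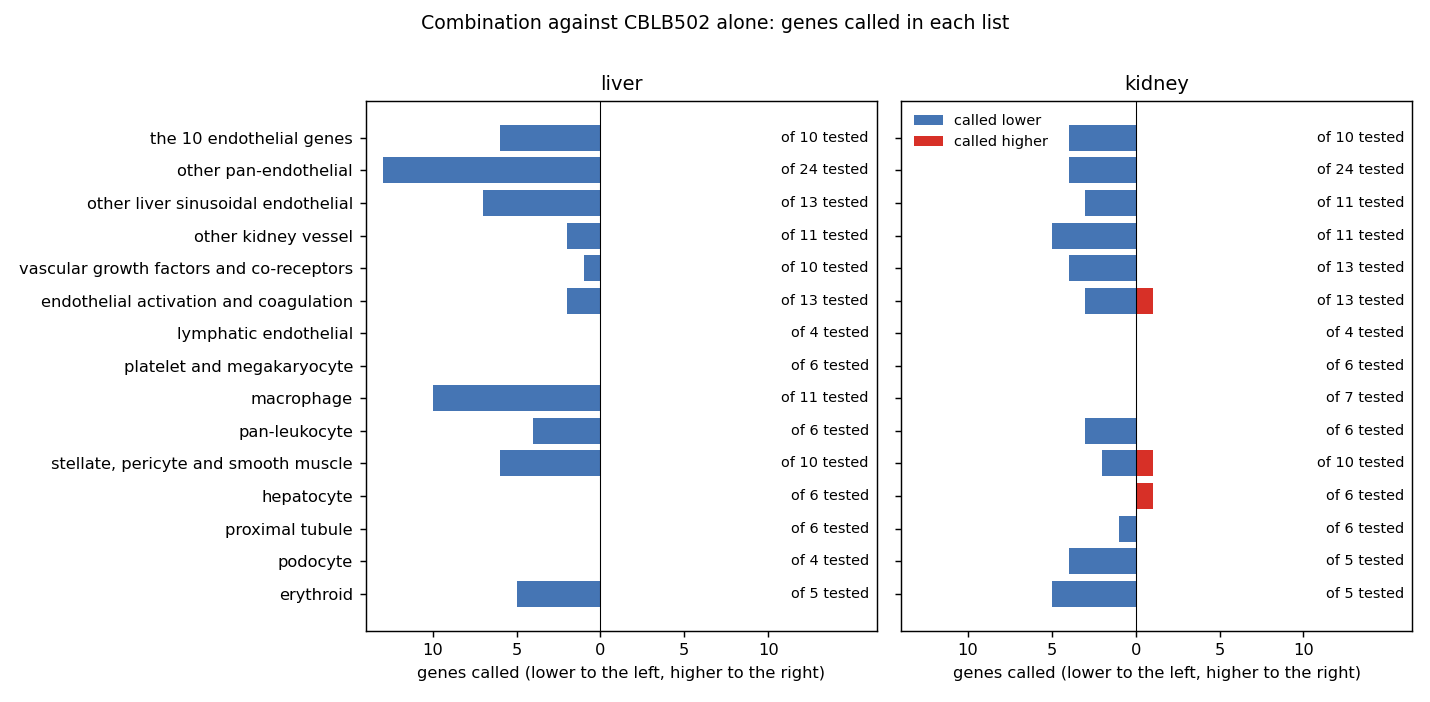
Genes called lower (blue, to the left) or higher (red, to the right) in the combination against CBLB502 alone, for each gene list in liver and kidney, with the number tested at the right. In liver 10 of 11 macrophage and 13 of 24 other pan-endothelial genes lie on the lower side beside 6 of the 10 endothelial genes, and in kidney 4 of 5 podocyte genes beside 4 of the 10.

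In kidney the receptors and the junction gene Cdh5 fell after cisplatin, with or without CBLB502. Kdr stood at 50.2, 24.8 and 46.9 CPM in control libraries 1, 2 and 3, and at 38.6, 31.4 and 16.9 in CBLB502 libraries 4, 5 and 6. It stood at 0.617, 1.35 and 9.11 CPM with cisplatin and 1.70, 4.20 and 2.90 with the combination. None of the 6 cisplatin-treated libraries reached the others, and cisplatin library 6 was the highest of the 6. The log2 fold change was -3.45 ± 0.82 (adjusted p = 0.0064) for cisplatin against control, -2.97 ± 0.80 (0.018) against CBLB502, and -3.30 ± 0.82 (0.013) for the combination against CBLB502. Without cisplatin library 6, cisplatin against CBLB502 had -4.88 (3.1e-05). The call for cisplatin against CBLB502 was lost without CBLB502 library 4 or cisplatin library 5, and with only the groups compared (adjusted p = 0.071). For the combination against CBLB502 the Kdr call was lost without combination library 4 or combination library 6.

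The second VEGF receptor, Flt1, stood at 33.3, 28.3 and 14.7 CPM in CBLB502 libraries, 3.48, 9.61 and 14.0 in cisplatin libraries and 4.23, 10.3 and 8.79 in combination libraries. Cisplatin library 6 came close to CBLB502 library 6, and the groups did not overlap. Flt1 was called lower at -1.49 ± 0.52 (adjusted p = 0.0495) for cisplatin and -1.71 ± 0.52 (0.034) for the combination against CBLB502. The cisplatin call was lost with no filter on low counts (0.052). With 1 library left out, it held only without CBLB502 library 6 or cisplatin library 6, and the combination call only without CBLB502 library 6. Whether Kdr and Flt1 differ in their response was not tested.

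Cdh5 in kidney stood in 3 tiers. It stood at 61.5, 24.7 and 52.2 CPM in control, 18.4, 16.1 and 8.90 with CBLB502, 2.65, 2.81 and 7.79 with cisplatin, and 1.39, 4.76 and 4.37 with the combination. Each CBLB502 library lay below each control library and above each library of the cisplatin arms. CBLB502 against control had -1.67 ± 0.54 with an adjusted p of 0.0505 in edgeR, not called, and -1.75 (0.0072) in DESeq2, which called it. Against CBLB502, Cdh5 was called lower with cisplatin at -1.71 ± 0.54 (0.035) and with the combination at -2.04 ± 0.55 (0.020). The cisplatin call was lost with only the groups compared (0.055). With 1 library left out, it held only without CBLB502 library 6 or cisplatin library 6. The combination call then held only without CBLB502 library 6, combination library 5 or combination library 6.

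**Figure D4:**
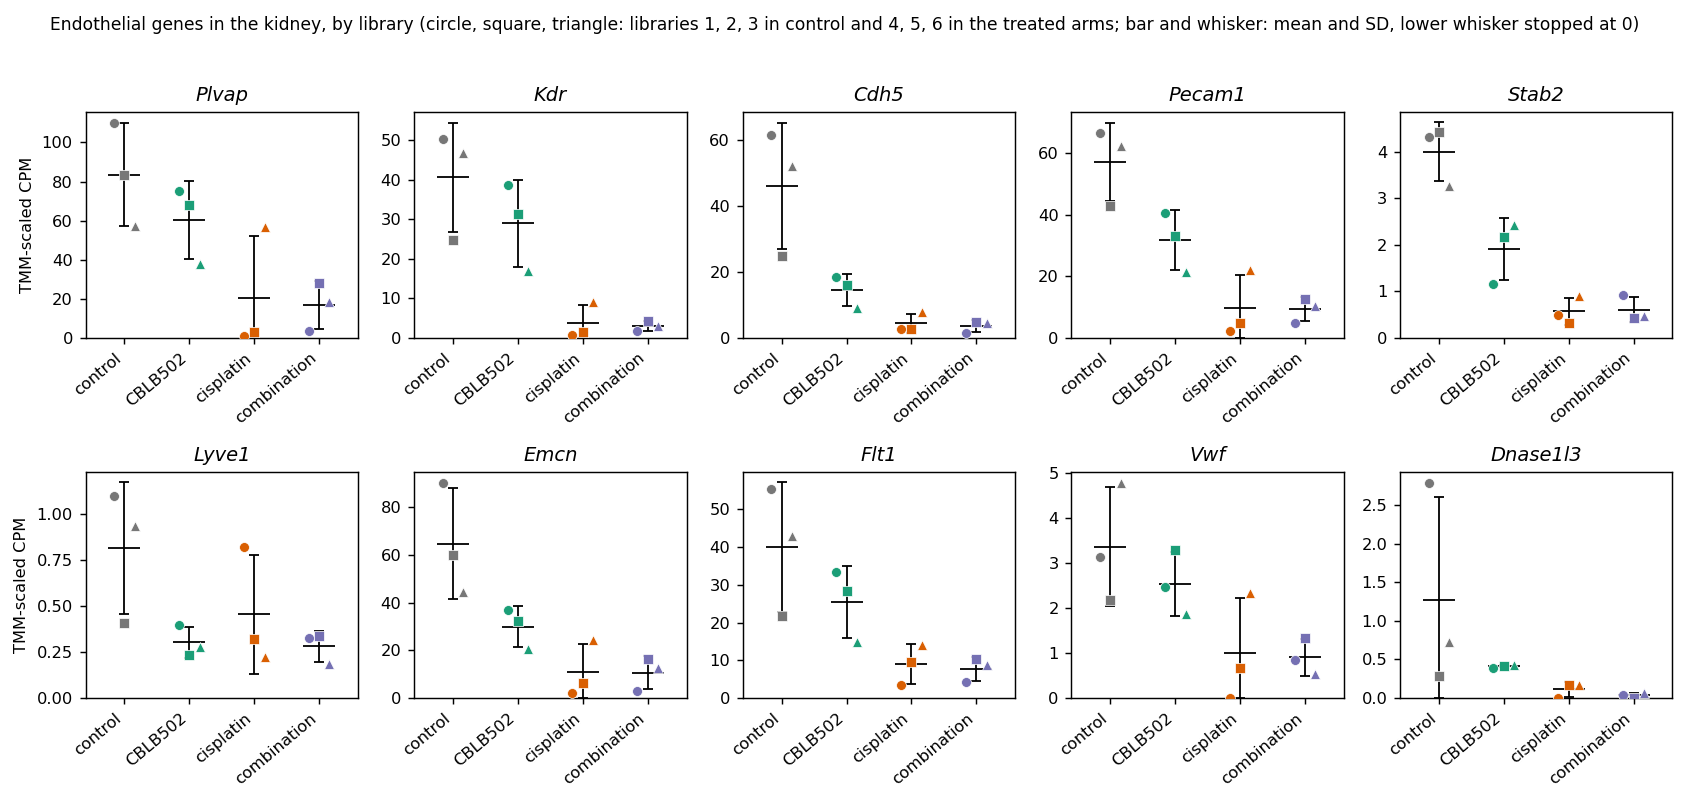
CPM of each of the 10 genes in the 12 kidney libraries, on linear axes that start at 0 and differ between genes; points are libraries, bars means and whiskers SD. Cisplatin library 6 (triangle) reaches 56.8 CPM of Plvap while libraries 4 and 5 stand at 0.964 and 3.05.

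The fenestral and capillary genes Plvap, Pecam1 and Emcn were split within the cisplatin group. Plvap stood at 75.2, 67.8 and 37.7 CPM with CBLB502, 0.964, 3.05 and 56.8 with cisplatin, and 3.61, 27.9 and 18.5 with the combination. Cisplatin libraries 4 and 5 were the lowest of the kidney libraries and library 6 lay inside the CBLB502 range. Cisplatin against CBLB502 was -1.57 ± 1.11 (adjusted p = 0.31) for Plvap, and -4.91 (0.00050) without library 6. Emcn stood at 37.0, 32.4 and 20.4 CPM with CBLB502, 1.92, 6.34 and 24.4 with cisplatin, and 3.02, 16.3 and 12.7 with the combination. Its cisplatin contrast against CBLB502 was -1.46 ± 0.76 (0.18), and -2.86 (0.0049) without library 6. Pecam1 had 2.31, 4.93 and 22.0 CPM with cisplatin against 40.5, 33.1 and 21.3 with CBLB502, a fold change of -1.70 ± 0.65 (0.072) that became -3.13 (0.00019) without library 6. With all libraries kept, limma-voom called Plvap (adjusted p = 0.038), Emcn (0.049) and Pecam1 (0.015) lower in this comparison, and DESeq2 called Pecam1 (0.017).

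Sinusoidal genes were low in kidney. Stab2 stood at 4.31, 4.43 and 3.27 CPM in control, 1.15, 2.16 and 2.43 with CBLB502, 0.498, 0.308 and 0.893 with cisplatin, and 0.910, 0.427 and 0.470 with the combination. The tiers did not overlap, control above CBLB502 above both cisplatin arms, and Stab2 was called lower against CBLB502 at -1.75 ± 0.48 (adjusted p = 0.020) for cisplatin and -1.66 ± 0.48 (0.027) for the combination. With 1 library left out, the cisplatin call held only without CBLB502 library 4 or cisplatin library 6. The combination call then held only without CBLB502 library 4 or combination library 4. Lyve1 ranged from 0.182 to 1.10 CPM over the 12 libraries and edgeR called it in no comparison within kidney. DESeq2 called Lyve1 lower in the combination against control, at -1.67 (adjusted p = 0.038). Dnase1l3 stood at 40 counts in each CBLB502 library and at 0, 15 and 19 counts with cisplatin and 4, 0 and 7 with the combination, and edgeR called it lower in the combination against control, at -5.03 ± 1.42 (0.016), a call lost without control library 1 or combination library 4. In the combination against CBLB502 it had -3.45 ± 1.33 (0.081) in edgeR and was called by DESeq2 (0.017), limma-voom (0.042) and the fit of only the groups compared (0.012). For cisplatin against control it had -3.44 ± 1.30 (0.054) in edgeR and was called by DESeq2 (0.0082), limma-voom (0.046) and with median-of-ratios scaling (0.048). Vwf ranged from 1.86 to 3.29 CPM with CBLB502, 0 to 2.34 with cisplatin and 0.528 to 1.33 with the combination, and was not called in edgeR's fit of all 12 libraries. A fit of only the groups compared called Vwf lower in the combination against control, at -1.98 (adjusted p = 0.012). Without cisplatin library 6, Vwf was called lower with cisplatin, at -2.91 (0.041) against CBLB502 and -3.31 (0.024) against control.

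**Figure D5:**
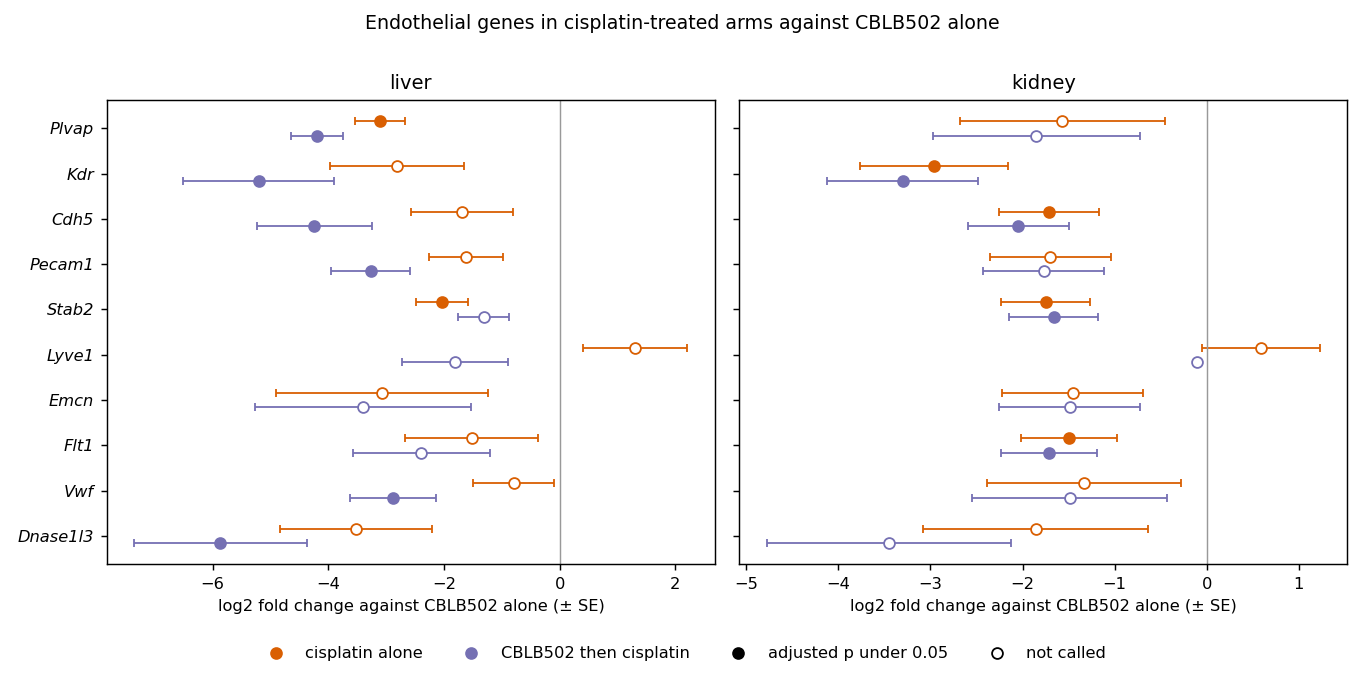
Log2 fold changes ± SE of the 10 genes against CBLB502 alone, for cisplatin (orange) and the combination (purple), in liver and kidney; filled points have an adjusted p under 0.05 and the whisker is left out where the change is within 0.2 of 0. In liver the combination points lie left of the cisplatin points except for Stab2, and in kidney the SE bars of the 2 arms overlap for each gene but Lyve1, whose combination point has no bar, and the gap is widest for Dnase1l3.

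Counted over the 10 genes in kidney, CBLB502 against control called 0 in edgeR, with 2 at an unadjusted p under 0.05 and 1 by DESeq2 and by limma-voom, against 19.2% of all genes called in either direction. Cisplatin called 6 lower against control (15.2% of all genes lower), or 8 without cisplatin library 6, with Plvap and Vwf added, and the combination called 7 (15.0%). Against CBLB502, Kdr, Cdh5, Stab2 and Flt1 were the 4 called lower both with cisplatin (10.2% of all genes) and with the combination (8.98%). In the combination 9 of the 10 lay below CBLB502 with no overlap, as 29.1% of all genes did, and Lyve1 overlapped. Medians over the 10 were -1.63 and -1.74, beside -0.05 and -0.02 over all genes tested. Cisplatin against CBLB502 had 8 called without cisplatin library 6, 3 without CBLB502 library 6, 1 without CBLB502 library 4, CBLB502 library 5 or cisplatin library 4, and 0 without cisplatin library 5. The combination against CBLB502 had 1 to 3 called on leaving out any of its 6 libraries.

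Among other vessel genes of kidney, the arterial genes Efnb2 and Sema3g and the glomerular gene Ehd3 were called lower with cisplatin. Against CBLB502, 4 of 11 kidney vessel genes were called lower with cisplatin and 5 with the combination, with Sema3g at 7.57 CPM with cisplatin, 7.98 with the combination and 39.4 with CBLB502, and Ehd3 at 2.41 with cisplatin against 16.2. Of 24 other pan-endothelial genes 2 were called lower with cisplatin, the endothelial transcription factor Erg at -2.81 ± 0.92 (adjusted p = 0.039) and the phosphatase Ptprb at -2.21 ± 0.72 (0.038), and 4 with the combination (medians -1.44 and -1.46). Over all genes tested, 10.2% were called lower with cisplatin and 8.98% with the combination, and 2 of 24 does not exceed the cisplatin share. The ligand Vegfa was called lower in both arms, at 74.5 CPM with cisplatin, 81.9 with the combination and 169 with CBLB502. Of 13 activation and coagulation genes 5 were called higher with cisplatin, where 18.5% of all genes were, among them the adhesion molecule Icam1 at 112 CPM against 11.7, tissue factor F3 at 114 against 9.97 and the NF-kappaB inhibitor Nfkbia at 58.5 against 9.72, and 2 were called lower. The list summed to 80.6, 367 and 511 CPM in the cisplatin libraries, in rising order, against 64.3 to 89.5 with CBLB502, so the lowest cisplatin library lay inside the CBLB502 range. In the combination 1 was called higher (14.9% of all genes), Nfkbia at 26.9 CPM, and 3 lower, among them thrombomodulin (Thbd) at -1.87 ± 0.36 (0.0036).

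In kidney too, markers of other cells moved in the same comparisons, and their part was not tested. Podocyte genes, whose cells make VEGF for the glomerulus, had 4 of 5 called lower in both arms against CBLB502, with summed levels of 36.3 to 95.02 CPM with cisplatin, 48.6 to 70.1 with the combination and 201 to 244 with CBLB502. All 5 erythroid genes were called lower, at 1.03 to 4.54 CPM with cisplatin and 2.09 to 6.73 with the combination against 164 to 718. Stellate, pericyte and smooth muscle genes had 6 of 10 called lower and 1 higher with cisplatin, and 2 lower and 1 higher with the combination. The 10 endothelial genes summed to 13.3, 29.5 and 138 CPM in cisplatin libraries 4, 5 and 6.

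CBLB502 before cisplatin was compared with cisplatin alone in each organ. In liver 0 of the 10 were called in edgeR (5 at an unadjusted p under 0.05, 3 by DESeq2 and 0 by limma-voom), where 3.57% of all genes were called, and the median was -1.87, toward lower levels in the combination, beside 0.01 over all genes. Cdh5 had -2.55 ± 0.93, Vwf -2.09 ± 0.73 and Plvap -1.09 ± 0.41. Without cisplatin library 3 Lyve1 and Vwf were called lower and Stab2 higher. In kidney 0 of the 10 were called (0 at an unadjusted p under 0.05, 0 by DESeq2 and 0 by limma-voom), where 0.00492% of all genes, a single gene, was called, and the median was -0.25. Without kidney cisplatin library 6 the direction turned, and Plvap was called higher in the combination at 3.06 (adjusted p = 0.014), Kdr at 1.58 (0.040) and Pecam1 at 1.36 (0.041). The labels give no reason to leave that library out.

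The interaction asks whether the combination differed from the sum of the CBLB502 and cisplatin effects. Its median over all genes tested was -0.23 in liver, or -0.02 with median-of-ratios scaling, and -0.07 in kidney. Control libraries enter the interaction and the organ differences against control, so library type cannot be told apart from treatment in these. In liver Plvap was called, at -1.86 ± 0.57 (adjusted p = 0.038), against 21.7% of all genes called, and the call was lost with median-of-ratios scaling (0.067), with a replicate block (0.066) and on leaving out any of 7 of the 12 libraries: control 2 or 3, CBLB502 1 or 2, cisplatin 2, or combination 1 or 2. Without cisplatin library 3, Lyve1 was called as well, at -4.19 (0.027). With all libraries kept, DESeq2 called Lyve1 at -3.62 (0.024). In kidney 0 of the 10 were called in edgeR, with 0 at an unadjusted p under 0.05, 0 by DESeq2 and 0 by limma-voom, against 8.01% of all genes. Without kidney cisplatin library 6, Plvap, Kdr, Cdh5 and Pecam1 were called, at 3.53, 2.06, 2.03 and 2.21. The effect of cisplatin against CBLB502 differed between the organs for 0 of the 10, with 0 at an unadjusted p under 0.05 and 0 by DESeq2 or limma-voom, against 2.08% of all genes, and Plvap had a kidney-minus-liver difference of 1.44 ± 1.27 (adjusted p = 0.69). Without liver cisplatin library 3, Dnase1l3 was called in that comparison at 5.21 (0.042). The organ difference was also called for 0 of the 10 in cisplatin against control (2 at an unadjusted p under 0.05, 14.2% of all genes called), in the combination against cisplatin (2 and 0.964%) and in CBLB502 against control (1 and 7.51%), each with 0 by DESeq2 and 0 by limma-voom. Without kidney cisplatin library 6, Plvap was called for cisplatin against control at -3.06 (0.022), where it had been 0.38 ± 1.28, and for the combination against cisplatin at 4.20 (0.014).

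The ratio of Stab2 to Plvap CPM was computed after their values had been seen. In liver it was 0.547, 1.14 and 2.22 in control, 1.07, 0.807 and 0.827 with CBLB502, 1.17, 1.06 and 3.75 with cisplatin, and 14.98, 7.16 and 4.21 with the combination. Each combination library had a higher ratio than every other liver library. With 3 libraries a group the two-sided exact permutation test cannot go below p = 0.10, which it gave for the combination against each other arm, and 0.40 after Benjamini-Hochberg adjustment over 12 comparisons. In kidney the geometric mean ratio was 0.0492, 0.0315, 0.0937 and 0.0461 in control, CBLB502, cisplatin and combination.

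Across the 9 treated libraries of liver, the genes whose log2 CPM were most like the mean profile of the 10 were Slc43a3 (Pearson's r = 0.97), Aqp1 (0.96), Fez2 (0.96), Clec4g (0.95) and Slc25a30 (0.95), among 7590 genes with a mean of at least 5 CPM. With the 3 control libraries added, r was 0.92, 0.85, 0.68, 0.95 and 0.82. In kidney they were P3h2, Cald1, Ifi44, Arhgap31 and Dbn1 (each 0.99), and with control libraries r was 0.45, 0.99, 0.98, 0.99 and 0.27. Of the 10 themselves, set against the mean of the other 9, Kdr was the most alike in liver at 0.96 and Lyve1 the least at 0.47, and in kidney Pecam1 had 0.99, Kdr 0.98 and Lyve1 -0.57. These are descriptions over libraries that share arms, depth and cell makeup, and carry no test.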

How the data were processed

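Total RNA of liver and kidney was extracted with Trizol and sequenced on Illumina libraries, per the labels' protocols. Reads were trimmed with cutadapt 1.9, per the submitters' processing notes; aligner, counter and strand setting are not given in the sources used here. The deposited table holds counts per gene, made by the authors, and FPKM by the authors for 15 control and liver libraries. The FPKM served only for gene lengths, from libraries with at least 20 counts, and 9 further FPKM columns were not used. Coordinates in the table match GRCm38. Treated kidney columns are numbered 4 to 6 and were tied to their arm only.

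Counts were TMM-scaled and tested with edgeR 4.0.16 (quasi-likelihood, Benjamini-Hochberg, threshold 0.05, R 4.3.3). All 12 libraries of an organ entered 1 fit, and all 24 entered the fit for organ comparisons. Fitting was tried on simulated counts with known changes, the same spread for all genes and no deviating library. That trial says nothing on calls that depend on single libraries. DESeq2 1.42.0, limma-voom (limma 3.58.1), other scaling, no filter, only the groups compared, a replicate block and leaving out each library were alternatives. Genes named from the 15 lists were the 4 with the lowest p per list and comparison. Genes of like pattern were the 5 with the highest Pearson's r. The 10 genes and the lists were chosen with earlier results of these data known.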

Additional observations from a re-analysis of the deposited data

How the results depend on the processing

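Counts are of the 10 genes called. Fitting only the groups compared gave 1 for liver cisplatin against control (2 with all groups), 1 against CBLB502 (2), 3 for kidney CBLB502 against control (0), 0 and 9 for kidney cisplatin and combination against CBLB502 (4 each), and 3 for kidney against liver with cisplatin (5). limma-voom gave 7 for liver cisplatin against CBLB502, 7 in kidney, 2 for the liver interaction (1), 1 for kidney CBLB502 against control, and 1 and 4 for kidney against liver in control (6) and combination (8). DESeq2 gave 3 for liver combination against cisplatin (0), 2 for the liver interaction and 1 for kidney CBLB502 against control. Median-of-ratios scaling gave 0 for the liver interaction and 1 for kidney CBLB502 against control. The cause was not tested.

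With 1 library left out, liver counts ranged from 1 to 5 for cisplatin against control and against CBLB502, 4 to 6 for the combination against control, 1 to 2 against CBLB502, 0 to 3 against cisplatin and 0 to 4 for the interaction. Kidney counts ranged from 5 to 8 for cisplatin and 5 to 7 for the combination against control, 0 to 8 and 1 to 3 against CBLB502, 0 to 3 between them, 0 to 4 for the interaction and 0 to 1 for CBLB502 against control. Kidney against liver gave 2 to 7 in control, 4 to 5 with CBLB502, 3 to 7 with cisplatin and 4 to 6 with the combination, and organ differences of effects 0 to 1. Direction reversed without kidney cisplatin library 6. With 1 library left out, log2 fold changes of the combination against cisplatin ranged from -0.87 to 3.06 for Plvap, -0.83 to 1.58 for Kdr and -0.54 to 1.36 for Pecam1, and the organ difference of cisplatin against control from -3.06 to 0.94 for Plvap, the far end each time being without that library.

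Replicate numbers of liver did not pair the libraries (5 of 18 same-numbered pairs had a correlation over 0.1, as had 7 of 36 others). The replicate block gave 4 of the 10 in the liver combination against CBLB502 and 0 for the interaction. In kidney no paired analysis was possible because the treated columns are numbered 4 to 6, which are not the labels' replicate numbers, and could be tied only to their group.

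Over all genes, liver combination against CBLB502 called 1209, 2604 by DESeq2 and 5365 with only the groups compared, and kidney combination against cisplatin called 1, 623 by DESeq2 and 4679 without kidney cisplatin library 6. With median-of-ratios scaling the median of all genes in liver moved from 0.14 to -0.10 for CBLB502, 0.09 to -0.14 for cisplatin and 0.14 to -0.16 for the combination against control.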
